A study of Mus musculus with 12 samples.

Results

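The Bcl-2 family genes were followed in bone marrow-derived macrophages (BMDMs) treated with I-BET151 (iBET), an inhibitor that keeps the bromodomain proteins of the BET family off acetylated histones. The members were the rows of the count table whose symbols are Bcl2, Bcl2l1, Mcl1, Bcl2a1b, Bcl2l11, Bmf, Bbc3, Pmaip1, Bax and Bak1. All 10 were among the 24421 symbols of the table, and all 10 passed the filter on low counts with 11468 genes in all. Cells came from C57BL/6 mice whose age and sex the labels do not give, and were differentiated with 100 ng/mL of M-CSF over 5 days, the medium being changed on day 3. They were stimulated for 4 hours with ovalbumin alone (Ova) or ovalbumin bound by IgG in an immune complex (IC), which cross-links Fc gamma receptors. They also received iBET at 5 µM or the solvent DMSO. The labels have drug and stimulus given together, but the study's text has the drug precede the stimulus. Their order and the length of exposure to the drug are therefore not settled here. The groups were DMSO Ova, DMSO IC, iBET Ova and iBET IC, with 3 libraries in each, 1 from every one of mice A, B and C, or 12 libraries in all.

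The Bcl-2 family sets whether the outer mitochondrial membrane stays closed. Antiapoptotic members (Bcl2, Bcl2l1, Mcl1, Bcl2a1b) bind and restrain the effectors Bax and Bak1, which otherwise form pores that release cytochrome c and start the caspases. BH3-only members (Bcl2l11, Bmf, Bbc3, Pmaip1) bind the antiapoptotic proteins in a groove, and some of them also engage the effectors. The messages and proteins of Mcl1 and Bcl2a1 turn over fast, and Bcl2a1 is a target of NF-kB.

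Total counts were 7.55 to 17.4 M per library. The ribosomal precursor Rn45s took 1.41 to 7.83% of the counts in 11 libraries. It took 77.4% in that of mouse A in DMSO Ova, which left 1.77 M counts on other genes there. Without that library the members called were as many in each of the 5 comparisons as with it. They were 1 with IC in DMSO, 7 with iBET in Ova, 7 with iBET in IC, and 0 in the others. Among all 11667 genes tested then, 123 were called with IC in DMSO and 56 with IC under iBET. With iBET, 3378 were called in Ova and 4469 in IC, and the remaining comparison had 0. The 8 macrophage markers were present, with summed levels of 6569 to 7674 CPM (counts scaled to a common library size) in DMSO Ova, 7136 to 8484 in iBET Ova, 6325 to 7237 in DMSO IC and 7741 to 8454 in iBET IC, where the last 2 groups did not overlap. With iBET 1 of the 8 (Mertk) was called higher in Ova and 2 (Mertk and Lyz2) in IC; their part in the results with iBET was not tested. Neutrophil markers summed to between 9.76 and 56.3 CPM, with overlapping ranges in the 4 groups (for example 9.76 to 54.0 in DMSO Ova and 17.3 to 44.8 in iBET IC); their part in the results was not tested. Summed dendritic cell markers stayed at or below 1.65 CPM, and the 1 of them that was tested, Zbtb46, was called higher with iBET in Ova on 4 to 13 counts per library against 0 to 1, with groups that overlapped in CPM; its part in the results was not tested. B cell markers stayed at or below 1.33 CPM with 2 of 5 at 0, and T and NK cell markers at or below 4.43 with 1 of 6 at 0. Stromal markers summed to at most 2.05 and erythroid markers to at most 0.514 with 3 of 5 at 0, while all 5 mast cell and basophil markers were at 0. The inhibitor's textbook response was present, since Brd2 was 2.53 and Hexim1 2.44 higher and Myc 1.72 lower on the log2 scale with iBET in Ova, each called. So was the response to IC, with Irg1, Cxcl2 and Nfkbia called higher in both drug arms.

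RefSeq promoter windows of 300 bases (250 before to 50 after a transcript start, GRCm38.p6) were matched to 9 of the 10 members, in 16 windows; Pmaip1 had none in the table. Windows of Bmf, Bcl2l11 and Bcl2a1b are printed 5′ to 3′ on the gene's strand because Bmf was the member called with IC, Bcl2l11 was called higher and Bcl2a1b fell furthest with iBET. Capitals mark motifs searched on both strands, which were FoxO (TGTTTAC), E-box (CACGTG), GC box (GGGCGG), AP-1 (TGANTCA), CRE (TGACGTCA) and the NF-kB motif. The Bmf window is chr2:118549637-118549936 on the minus strand, the Bcl2l11 window chr2:128125788-128126087 on the plus strand, and the Bcl2a1b window chr9:89199023-89199322 on the plus strand.
Bmf: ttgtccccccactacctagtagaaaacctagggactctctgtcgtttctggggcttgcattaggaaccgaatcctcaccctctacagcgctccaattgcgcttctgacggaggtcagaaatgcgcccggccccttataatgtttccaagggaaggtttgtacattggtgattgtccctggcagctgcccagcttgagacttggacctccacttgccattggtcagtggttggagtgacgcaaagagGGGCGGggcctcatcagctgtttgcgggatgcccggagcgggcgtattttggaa
Bcl2l11: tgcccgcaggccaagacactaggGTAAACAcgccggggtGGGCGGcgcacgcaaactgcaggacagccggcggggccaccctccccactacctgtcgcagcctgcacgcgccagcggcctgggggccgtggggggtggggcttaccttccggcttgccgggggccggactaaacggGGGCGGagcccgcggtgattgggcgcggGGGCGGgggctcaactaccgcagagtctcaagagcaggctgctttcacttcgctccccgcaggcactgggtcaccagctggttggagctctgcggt
Bcl2a1b: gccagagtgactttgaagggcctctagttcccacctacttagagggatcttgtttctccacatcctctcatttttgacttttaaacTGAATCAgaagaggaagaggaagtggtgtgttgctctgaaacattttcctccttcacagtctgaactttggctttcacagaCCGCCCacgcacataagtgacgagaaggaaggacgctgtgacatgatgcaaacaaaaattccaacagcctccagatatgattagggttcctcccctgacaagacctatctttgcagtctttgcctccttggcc

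The Bmf window held 1 GC box, at bases 247 to 252, across the start at base 251. In the Bcl2l11 window there were 1 FoxO match (bases 24 to 30, on the opposite strand) and 3 GC boxes, whereas the second Bcl2l11 window held 3 GC boxes and no FoxO match. A window of Bbc3, a member called in no comparison, also held 1 FoxO match (chr7:16310011-16310310). The window of Bcl2, a member also called higher with iBET and not printed here, held 7 GC boxes and no match to the other motifs. The Bcl2a1b window held 1 AP-1 match at bases 87 to 93 and 1 GC box. Among 32851 promoters of the same length, 3.65% held the FoxO motif, 7.15% the E-box, 35.7% the GC box, 7.81% the AP-1 motif, 1.79% the CRE and 8.46% the NF-kB motif. No 2 of the matches printed here overlap. The other 2 Bmf windows held no FoxO, GC box or AP-1 letters, and 1 of them held 1 NF-kB match. Matches of letters are a description and were not tied to any measured binding.

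Per transcript length, Mcl1 was the most abundant member in every group, and Bmf, Bcl2 and, under iBET in Ova, Bcl2a1b were among the least. Levels between genes were set side by side as FPKM, which is CPM per kilobase of the gene's merged exons. In DMSO Ova they were 182 ± 27 FPKM for Mcl1, 35.3 ± 3.98 for Bax, 28.8 ± 3.41 for Bak1, 21.4 ± 0.628 for Bcl2l1, 9.59 ± 1.13 for Bcl2l11, 7.00 ± 2.42 for Bcl2a1b, 4.70 ± 1.24 for Bbc3, 4.40 ± 0.349 for Pmaip1, 1.77 ± 0.420 for Bmf and 1.46 ± 0.207 for Bcl2 (SD, n = 3). Of these neighbours, Bax and Bak1, Bcl2l11 and Bcl2a1b, Bcl2a1b and Bbc3, Bbc3 and Pmaip1, and Bmf and Bcl2 had overlapping ranges over the libraries. In iBET IC the order differed: Pmaip1 (11.9 ± 1.45 FPKM) stood next to Bcl2l11 (11.6 ± 0.281), and Bcl2a1b stood at 2.25 ± 0.836. In iBET Ova the lowest mean was that of Bcl2a1b (0.832 ± 0.740 FPKM), next to Bmf (0.891 ± 0.148), and their libraries overlapped. The level of Bmf in iBET IC was 0.471 ± 0.0712 FPKM, the lowest of the 10 members in that group. Merged exons may include transcript forms that these cells do not use, so the order between genes is approximate. For Bcl2a1b, 401 of 817 exonic bases also lie in the same-strand gene Gm29094, and how reads on them were counted is not given.

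**Figure D1:**
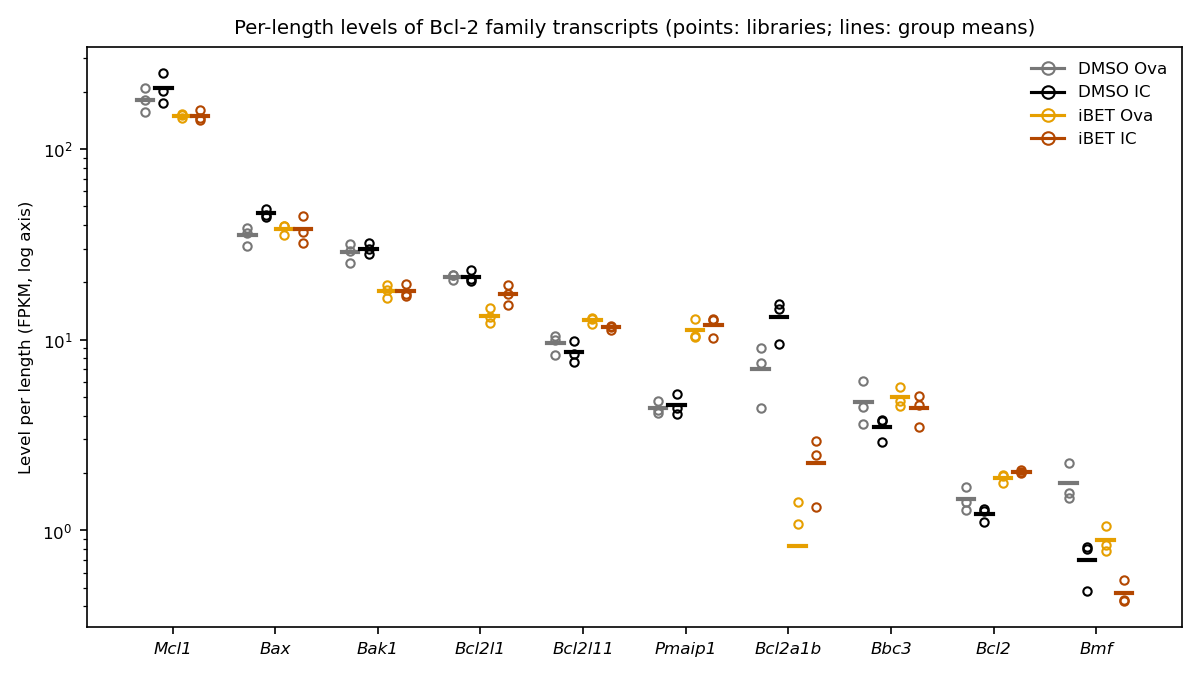
Level of each Bcl-2 family transcript per kilobase of merged exons (FPKM, log axis) in the 4 groups, with 1 open point per library and a line at the group mean (n = 3). Mcl1 stands highest at 149 to 209 FPKM in group means and Bmf in iBET IC lowest at 0.471; the Bcl2a1b library at 0 (iBET Ova, mouse C) cannot be drawn on a log axis.

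The comparison of IC with Ova asked which members respond to Fc gamma receptor cross-linking, first in DMSO and then under iBET. In DMSO, 1 of the 10 members was called (an adjusted p under 0.05 in edgeR's quasi-likelihood test, Benjamini-Hochberg over all genes tested), against 1.22% of all genes tested. It was Bmf, a BH3-only protein held on the actin and myosin cytoskeleton by a dynein light chain and freed by damage to it, and it was lower with IC. The median log2 change of the 10 members was 0.02, beside -0.01 over all genes. Under iBET none of the 10 was called, against 0.349% of all genes, although 3 (Bmf, Bcl2l1 and Bcl2a1b) had an unadjusted p under 0.05; DESeq2 also called 0 members. As these are bulk samples, fewer cells of a type and less RNA per cell cannot be told apart.

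Bmf (chr2:118528757-118549687, minus strand) was at 8.22, 11.8 and 7.79 CPM in mice A, B and C in DMSO Ova, and at 2.52, 4.18 and 4.29 CPM in DMSO IC. With iBET it was at 5.56, 4.08 and 4.40 CPM in Ova and at 2.24, 2.91 and 2.28 CPM in IC. Every DMSO Ova library lay above all other libraries, and within each drug arm the Ova and IC groups did not overlap. These levels rest on few reads, from 16 to 154 counts per library in DMSO Ova and from 19 to 72 in the other groups.

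With IC in DMSO, Bmf fell by 1.38 on the log2 scale (SE 0.26, 95% interval -1.93 to -0.82, adjusted p = 0.0244), to 38.5% of its Ova level. The fall was 1.63 in mouse A, 1.46 in mouse B and 0.83 in mouse C in log2 CPM. Bmf was chosen with this fall already known, so it is not independent support. Under iBET the IC difference of Bmf was -0.93 (SE 0.27, 95% interval -1.51 to -0.36, adjusted p = 0.272), lower in 3 of 3 mice but not called. The difference between the arms was 0.44 (SE 0.37, 95% interval -0.36 to 1.25, adjusted p = 1.00), so an unequal response to IC was not shown. The call in DMSO no longer held once mouse B was dropped from DMSO Ova (adjusted p = 0.164), mouse A from DMSO IC (0.0574) or mouse B from DMSO IC (0.0555), nor once any 1 mouse was dropped from all groups (0.0532 to 0.666). It was also lost with the compared groups fitted alone (0.206).

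Averaged over both drug arms, a contrast added after the data were seen, IC lowered Bmf by a log2 change of -1.15 (SE 0.18, adjusted p = 0.00529). This average includes the DMSO libraries whose fall was already known, so it is not independent support either. Here 1 of the 10 members was called, against 2.95% of all genes. The call held without each of the 12 libraries in turn and without mouse A (0.0191), but not without mouse B (0.221) or mouse C (0.0633). Bcl2a1b differed by 1.16 (SE 0.38) in this averaged contrast with an adjusted p of 0.143, and was called once mouse was fitted as a block (adjusted p = 0.0199).

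The other 9 members were not called with IC in either arm. Bax, an effector that moves from the cytosol to mitochondria, was at 48.8, 61.0 and 57.3 CPM in DMSO Ova and at 76.8, 69.8 and 71.1 CPM in DMSO IC. These groups did not overlap, and the log2 difference was 0.37 (SE 0.13, unadjusted p = 0.0132, adjusted p = 0.235). Under iBET the Bax libraries spanned 55.6 to 62.3 CPM in Ova and 50.6 to 70.3 CPM in IC, which overlap. The Bax interaction was -0.37 (SE 0.18, 95% interval -0.76 to 0.02, unadjusted p = 0.0582) and was not called, so an unequal response to IC was not shown. Bcl2l1, which encodes Bcl-xL, had a log2 difference with IC of 0.00 in DMSO (95% interval -0.24 to 0.24). Under iBET the Bcl2l1 difference was 0.38 (SE 0.11, unadjusted p = 0.00480, adjusted p = 0.294). Its interaction of 0.37 (SE 0.15) had an unadjusted p of 0.0330 and an adjusted p of 1.00.

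Differences with IC were small for Bak1, at 0.05 in DMSO and -0.00 under iBET (95% intervals -0.19 to 0.29 and -0.25 to 0.24), and for Pmaip1, at 0.04 and 0.09 (-0.30 to 0.37 and -0.21 to 0.39). Bcl2a1b differed by 0.93 in DMSO (SE 0.45, adjusted p = 0.467), higher in 3 of 3 mice with no overlap between groups, and by 1.39 under iBET (SE 0.62, unadjusted p = 0.0443, adjusted p = 0.645), where the groups overlapped. Mcl1 differed by 0.20 in DMSO and 0.00 under iBET, Bcl2 by -0.22 and 0.11, Bcl2l11 by -0.15 and -0.13, and Bbc3 by -0.35 and -0.17 on the log2 scale. Over the interaction, 0 of the 10 members were called, against 0% of all genes tested. In that comparison 1 member (Bcl2l1) and 292 genes had an unadjusted p under 0.05 in edgeR, and DESeq2 called 0 members and 4 genes.

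**Figure D2:**
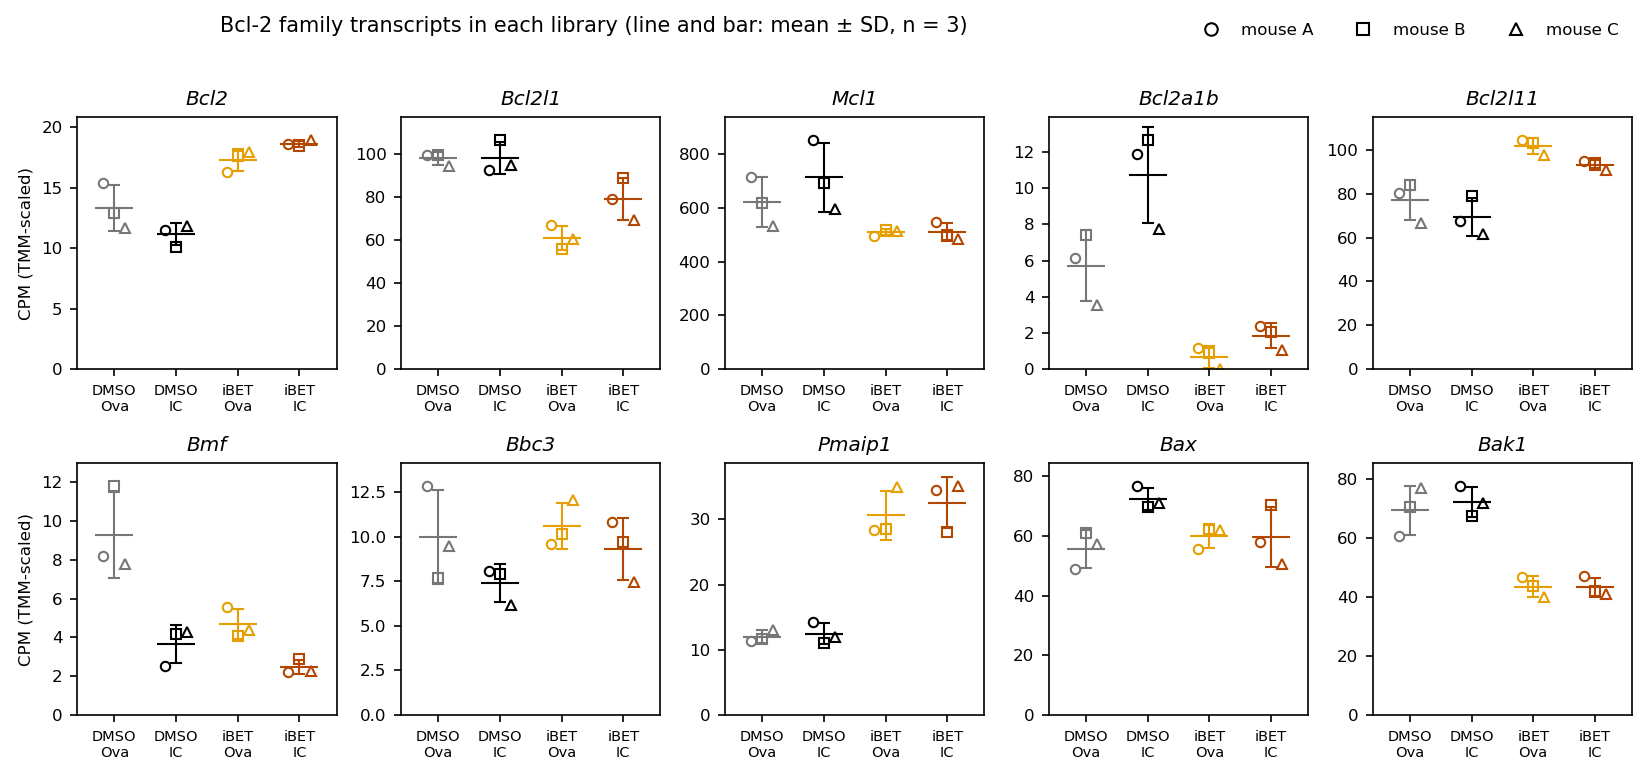
CPM of the 10 members in each library by group, 1 panel per gene with its own axis from 0, symbols for mice A, B and C, and a line with a bar for mean ± SD (n = 3). The DMSO Ova libraries of Bmf sit at 7.79 to 11.8 CPM, above all others, and Pmaip1 sits at 28.0 to 35.1 CPM in the 6 iBET libraries against 11.1 to 14.2 in the 6 DMSO libraries.

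The comparison of iBET with DMSO asked which members differ in level with the inhibitor, in Ova and in IC. In Ova, 7 of the 10 members were called, against 31.3% of all genes tested, and in IC 7 of the 10, against 34.8%. Those called higher in Ova were 3 (Bcl2, Bcl2l11 and Pmaip1) against 17.1% of genes, and those called lower were 4 (Bcl2l1, Bcl2a1b, Bmf and Bak1) against 14.2%. In IC the same 3 members were called higher, against 19% of genes, and 4 were called lower (Bcl2l1, Mcl1, Bcl2a1b and Bak1), against 15.8%. Each of the members' called changes had the same direction in 3 of 3 mice, with no overlap between its groups, as had 96.6% of all genes called in Ova and 98.3% in IC; of all genes tested, called or not, 45.1% and 48.6% had groups that did not overlap. Members' median log2 changes were -0.10 in Ova and -0.29 in IC, beside 0.02 and -0.00 over all genes. The 2 comparisons with iBET have no library in common, but each shares libraries with the IC comparisons.

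By role, 1 of the 4 antiapoptotic members was called higher and 2 lower in Ova, and 1 higher and 3 lower in IC. Of the 4 BH3-only members, 2 were called higher and 1 lower in Ova, and 2 higher and 0 lower in IC. Of the 2 effectors, 1 was called lower in either stimulus. With 1 mouse fewer the calls thinned most without mouse B, which left 3 of the 10 members called in Ova and 3 in IC. Over all genes, 1310 of 11484 were then called in Ova and 1769 in IC, against 3593 and 3987 of 11468 with all mice.

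Pmaip1, which encodes the BH3-only protein Noxa, a partner of Mcl1, rose most. It was at 11.3, 11.7 and 13.1 CPM in DMSO Ova and at 28.3, 28.6 and 35.0 CPM in iBET Ova. With IC its level was 14.2, 11.1 and 12.0 CPM with DMSO and 34.5, 28.0 and 35.1 CPM with iBET. All 6 iBET libraries lay above all 6 DMSO libraries. The log2 change was 1.33 (SE 0.15, adjusted p = 4.57e-05) in Ova and 1.38 (SE 0.15, adjusted p = 2.24e-05) in IC, or 2.52-fold and 2.61-fold. Both calls held in every alternative setting and with each library or mouse left out.

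Bcl2l11 encodes Bim, a BH3-only protein that binds all the antiapoptotic members. Its levels were 80.1, 84.0 and 66.7 CPM in DMSO Ova, 104, 103 and 97.6 in iBET Ova, 67.4, 79.0 and 61.6 in DMSO IC, and 94.8, 94.2 and 90.6 in iBET IC. Each iBET library exceeded every DMSO library. The log2 change was 0.41 (SE 0.11, adjusted p = 0.0162) in Ova and 0.43 (SE 0.11, adjusted p = 0.0104) in IC. In Ova the call did not survive the removal of mouse C from DMSO Ova (adjusted p = 0.0790), of mouse A (0.0514) or B (0.0511) from iBET Ova, or of any 1 mouse from all groups (0.0535 to 0.118), nor a fit of the compared groups alone (0.0561). The IC call ended without mouse A in DMSO IC (0.0502), and without mouse A (0.0540) or mouse C (0.0767) in all groups.

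Bmf, the third BH3-only member to be called, moved against the others. With iBET in Ova it fell by 1.01 on the log2 scale (SE 0.25, 95% interval -1.55 to -0.46, adjusted p = 0.00906), by 0.55, 1.49 and 0.80 in mice A, B and C. In IC the log2 difference was -0.56 (SE 0.27, 95% interval -1.15 to 0.03, adjusted p = 0.128), and the DMSO IC and iBET IC libraries overlapped. The Ova call ended when mouse B was left out of DMSO Ova (adjusted p = 0.0692) or of all groups (0.223), and in IC a call appeared when mouse A was left out of DMSO IC (-0.81, adjusted p = 0.0370). The group order was DMSO Ova (9.27 ± 2.21 CPM), iBET Ova (4.68 ± 0.776), DMSO IC (3.67 ± 0.989) and iBET IC (2.48 ± 0.374), where iBET Ova and DMSO IC had overlapping libraries, as had DMSO IC and iBET IC.

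Bbc3 encodes Puma, a BH3-only protein with a well known p53-driven form of induction. It spanned 7.67 to 12.8 CPM in DMSO Ova, 9.57 to 12.1 in iBET Ova, 6.20 to 8.08 in DMSO IC and 7.43 to 10.8 in iBET IC. All the groups compared overlapped. Its log2 difference with iBET was 0.16 (95% interval -0.30 to 0.63) in Ova and 0.34 (-0.11 to 0.79) in IC, and neither was called.

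Among the antiapoptotic members, Bcl2a1b (chr9:89199209-89207827, plus strand) fell furthest. It was at 6.16, 7.44 and 3.56 CPM in DMSO Ova and at 1.16, 0.882 and 0 CPM in iBET Ova. With IC the values were 11.9, 12.7 and 7.72 CPM with DMSO and 2.40, 2.03 and 1.08 CPM with iBET. All 6 iBET libraries lay below all 6 DMSO libraries, with at most 45 counts in any of them. The fitted log2 change was -2.94 (SE 0.58, adjusted p = 0.00257) in Ova and -2.48 (SE 0.47, adjusted p = 0.00178) in IC, and both calls were lost without mouse B only (adjusted p = 0.104 and 0.0684). With 0 counts in 1 library, the Ova value depends on the prior count, and it was -3.63 when mouse A was left out of iBET Ova and -2.43 when mouse C was.

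Bcl2a1b shares sequence with its copies, so its own count is uncertain. Of its stretches of 100 transcript bases, 31.1% also occurred in another Bcl2a1 copy. Bcl2a1a, Bcl2a1c and Bcl2a1d were therefore added to it, an alternative chosen after the data were seen, with Bcl2a1c contributing 1 count in all. The same-strand gene Gm29094 overlaps 401 of the 817 exonic bases of Bcl2a1b, which the sum does not address. The sum was 7.94 ± 2.90 CPM in DMSO Ova, 1.45 ± 1.04 in iBET Ova, 17.3 ± 4.42 in DMSO IC and 3.19 ± 1.45 in iBET IC (SD, n = 3). It fell with iBET by 2.41 on the log2 scale in Ova (SE 0.48, adjusted p = 0.00296) and by 2.41 in IC (SE 0.42, adjusted p = 0.00107). With IC the sum differed by 1.07 in DMSO (adjusted p = 0.302) and 1.08 under iBET (adjusted p = 0.671), and neither was called.

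Bcl2l1 was at 99.6, 99.8 and 94.8 CPM in DMSO Ova and at 67.1, 55.9 and 60.4 CPM in iBET Ova, a gap well outside the spread between mice. In IC it was at 92.9, 107 and 95.2 CPM with DMSO and at 79.3, 89.0 and 69.5 CPM with iBET, which also did not overlap but lay closer. The log2 change was -0.68 (SE 0.11, adjusted p = 0.000616) in Ova and -0.31 (SE 0.11, adjusted p = 0.0437) in IC. The Ova call held in every alternative setting and with each library or mouse left out. The IC call was lost without 8 of the 12 libraries, namely mice B and C of DMSO Ova, of iBET Ova and of DMSO IC (adjusted p = 0.0531 to 0.142) and mice A (0.104) and C (0.179) of iBET IC. It was also lost without mouse B (0.142) or mouse C (0.265), with no filter on low counts (0.0800) and with the compared groups alone (0.0792).

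Mcl1 was at 716, 617 and 532 CPM in DMSO Ova and at 495, 519 and 513 CPM in iBET Ova. In IC it was at 852, 692 and 597 CPM with DMSO and at 549, 500 and 483 CPM with iBET. Neither pair of groups overlapped, though the DMSO libraries were far more spread than the iBET libraries. The log2 difference was -0.29 (SE 0.14, 95% interval -0.59 to 0.01, adjusted p = 0.136) in Ova and the log2 change -0.48 (SE 0.14, adjusted p = 0.0167) in IC. The call in IC ended when mouse B (adjusted p = 0.0566) or mouse C (0.0622) was left out of iBET IC, or mouse B of all groups (0.172). Its interaction was -0.20 (95% interval -0.62 to 0.23), so an unequal effect in the 2 stimuli was not shown.

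Bcl2 was the antiapoptotic member that was higher with iBET. It was at 15.4, 12.9 and 11.7 CPM in DMSO Ova and at 16.3, 17.6 and 17.9 CPM in iBET Ova, which lay just apart. In IC it was at 11.5, 10.1 and 11.8 CPM with DMSO and at 18.6, 18.4 and 18.9 CPM with iBET, further apart and with little spread. The log2 change was 0.41 (SE 0.13, adjusted p = 0.0344) in Ova and 0.74 (SE 0.13, adjusted p = 0.000899) in IC. In Ova the call ended when mouse B (adjusted p = 0.0949) or C (0.152) was left out of DMSO Ova, mouse A (0.0508), B (0.0904) or C (0.0854) out of iBET Ova, mouse A out of iBET IC (0.0505), or mouse B (0.263) or C (0.318) out of all groups. It was also lost in DESeq2 (0.0532), with DESeq2 size factors (0.0522), with no filter (0.0728) and with the compared groups alone (0.115). In IC it was lost only without mouse B (0.0519). The opposite-strand gene D630008O14Rik overlaps 558 exonic bases of Bcl2, and the use of strand in counting is not given in the sources used here.

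Of the effectors, Bak1, which sits in the mitochondrial membrane and is held by Mcl1 and Bcl-xL, was lower with iBET. It was at 60.6, 70.5 and 76.9 CPM in DMSO Ova and at 46.8, 43.8 and 39.8 CPM in iBET Ova. In IC it was at 77.6, 67.4 and 71.8 CPM with DMSO and at 47.0, 42.1 and 40.9 CPM with iBET. The 6 iBET libraries lay below the 6 DMSO libraries. Bak1 fell by 0.68 on the log2 scale (SE 0.11, adjusted p = 0.000678) in Ova and by 0.74 (SE 0.11, adjusted p = 0.000316) in IC, and both calls held in every alternative setting and with each library or mouse left out. The opposite-strand gene Ggnbp1 has 2 annotation entries here, whose overlaps with Bak1 exons add to 614 bases. Bases under both entries are counted for each. Bax differed by 0.09 (95% interval -0.19 to 0.37) in Ova and by -0.28 (-0.55 to -0.01, adjusted p = 0.100) in IC, where a call appeared when mouse B was left out of iBET IC (-0.41, adjusted p = 0.0279). The same-strand gene Gm45808 overlaps 192 of the 1576 exonic bases of Bax.

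**Figure D3:**
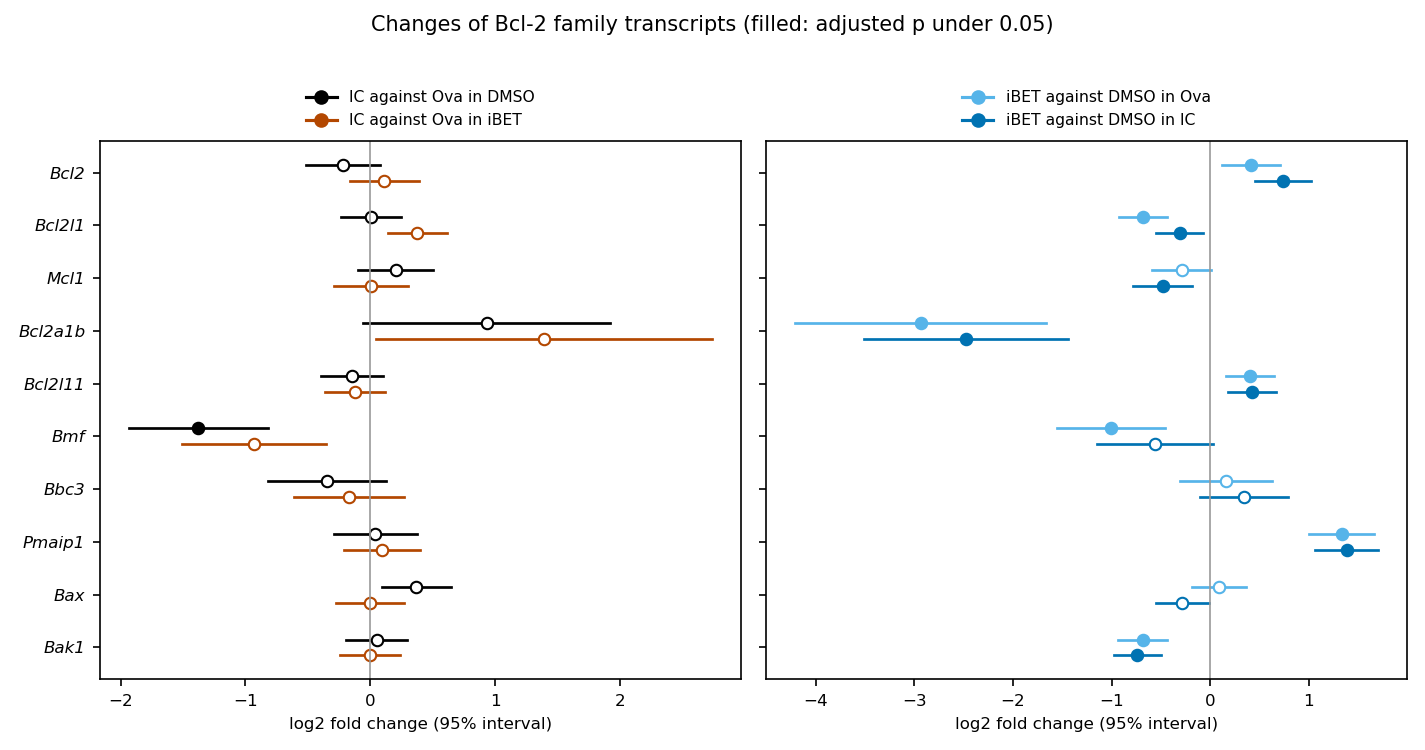
Log2 fold changes of the 10 members with unadjusted 95% intervals, for IC against Ova at left and iBET against DMSO at right; filled points have an adjusted p under 0.05. With IC only Bmf in DMSO (-1.38) is filled, whereas with iBET 7 of the 10 points are filled in each stimulus, from Bcl2a1b (-2.94 in Ova) to Pmaip1 (1.38 in IC).

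Other genes of the pathway were taken from hand-written lists. Their calls stand beside 31.3% of all genes called with iBET in Ova and 34.8% in IC, and beside 1.22% and 0.349% with IC in DMSO and under iBET; no list was tested against the other genes. The rest of the Bcl-2 family had 9 of 16 genes tested, with 2 called higher and 0 lower with iBET in Ova, and 3 higher and 4 lower in IC. Bnip3l and Bnip3, receptors for the removal of mitochondria, were higher by 0.67 (SE 0.09) and 0.79 (SE 0.16) in Ova and by 0.68 (SE 0.09) and 0.75 (SE 0.15) in IC on the log2 scale. Bcl2l12 was lower by a log2 change of -1.59 (SE 0.33, adjusted p = 0.00273) in IC, and differed by -0.89 (adjusted p = 0.0573) in Ova. The list's medians were 0.05 in Ova and 0.14 in IC. With IC, 0 of its 9 genes were called in either arm.

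Downstream of the pore, 10 apoptosome and mitochondrial factors were tested, with 2 called higher and 2 lower with iBET in Ova, and 3 higher and 1 lower in IC (medians 0.11 and 0.13). Apaf1, the scaffold that cytochrome c assembles into the apoptosome, rose by 0.39 (SE 0.11) in Ova and 0.51 (SE 0.11) in IC on the log2 scale. Htra2, a mitochondrial protease, was called lower, from 18.7 ± 4.03 to 9.03 ± 0.974 CPM in Ova and from 19.6 ± 1.76 to 9.17 ± 0.809 CPM in IC. Endog, a mitochondrial nuclease of low count, rose by 1.37 (SE 0.29) and 1.60 (SE 0.27). Of 8 caspase genes and regulators, 1 was called higher and 2 lower in Ova, and 2 higher and 2 lower in IC (medians -0.23 and -0.19). Casp8, the initiator at death receptors, changed by -0.68 (SE 0.09) and -0.60 (SE 0.09), and its inhibitor Cflar by -0.30 (SE 0.09) and -0.50 (SE 0.09). Cflar was also the 1 gene of that list called with IC in DMSO, at 0.66 (SE 0.09, adjusted p = 0.00464).

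The 9 inhibitor of apoptosis genes had 3 called higher and 1 lower with iBET in Ova, and 2 higher and 2 lower in IC (medians 0.33 and 0.31). Birc3, which encodes the ubiquitin ligase cIAP2, was lower by log2 changes of -0.63 (SE 0.12) and -0.92 (SE 0.11), and it was the 1 gene of the list called with IC in DMSO, at 0.72 (SE 0.11, adjusted p = 0.00830). Naip5 and Naip2, sensors of bacterial proteins with close paralogs whose reads counting could have split, were higher by 0.89 (SE 0.12) and 0.56 (SE 0.10) in Ova, and by 0.92 (SE 0.12) and 0.64 (SE 0.10) in IC. Among 9 tested partners and turnover factors of the members, 4 were called higher with iBET in Ova and 2 in IC, and 0 lower (medians 0.48 and 0.42). Dynll1, a dynein light chain that binds Bim, went from 61.9 ± 5.77 to 186 ± 19.4 CPM in Ova and from 60.9 ± 4.57 to 168 ± 21.3 CPM in IC, log2 changes of 1.57 (SE 0.12) and 1.47 (SE 0.12). Usp9x, a deubiquitinase of Mcl1, rose by 0.58 (SE 0.11) and 0.73 (SE 0.11). Trim17, a ubiquitin ligase of Mcl1, was near the floor at 0.0511 ± 0.0885 CPM in DMSO Ova and 1.16 ± 0.464 CPM in iBET Ova, and was called there (adjusted p = 0.0198) but not in IC (0.124).

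In the p53 axis, 13 of 14 genes were tested, with 5 called higher and 1 lower with iBET in Ova, and 4 higher and 1 lower in IC (medians 0.23 and 0.13). Sesn2 rose by 1.52 (SE 0.19) and 1.58 (SE 0.18), and Trp53inp1 by 1.21 (SE 0.19) and 1.47 (SE 0.19), while Mdm2, the ligase that degrades p53, changed by -1.26 (SE 0.17) and -1.39 (SE 0.17) on the log2 scale. With IC in DMSO, Tigar was called higher and Sesn1 lower. Of 16 transcription factors linked to the members, 6 were called higher and 4 lower with iBET in Ova, and 6 higher and 3 lower in IC (medians 0.00 and -0.02). Foxo3, a known activator of Bcl2l11 and Bbc3, went from 31.1 ± 1.22 to 61.4 ± 2.51 CPM in Ova and from 25.1 ± 2.13 to 50.5 ± 5.28 CPM in IC. Spi1, the macrophage lineage factor PU.1, had log2 changes of -1.54 (SE 0.12) and -1.75 (SE 0.12). With IC under iBET, 1 of these factors (Nfkb1) was called, and it was higher.

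**Figure D4:**
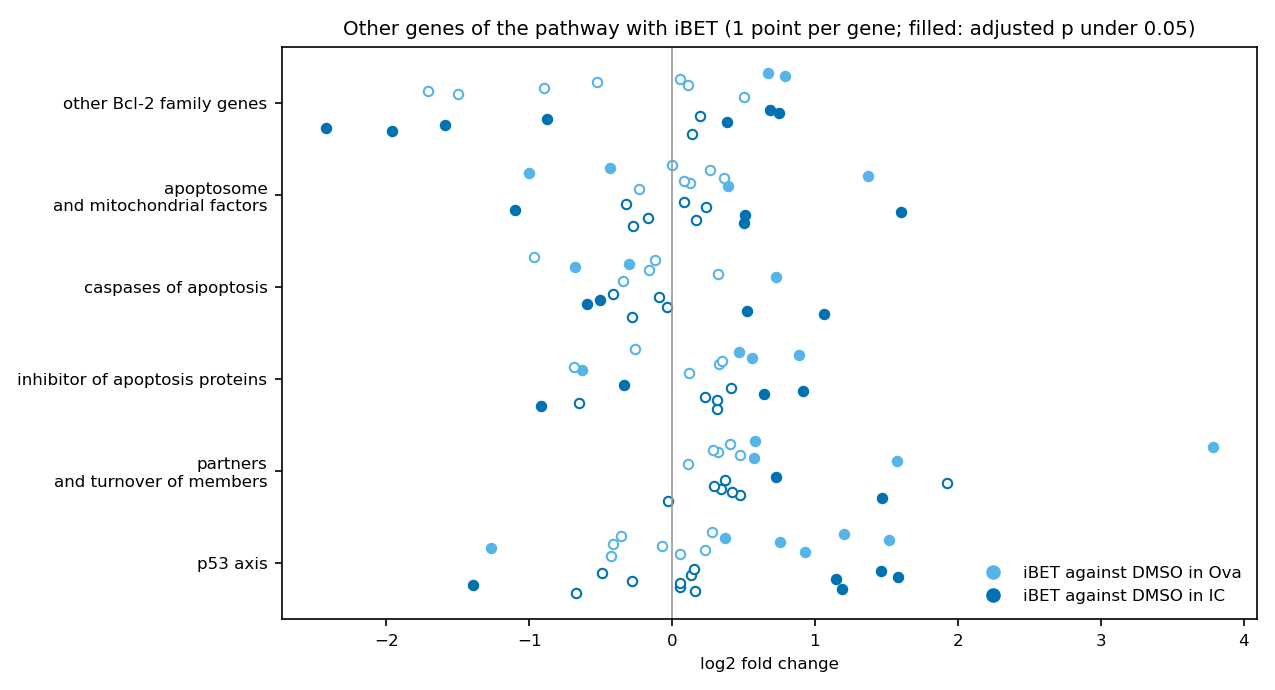
Log2 fold changes with iBET of the tested genes of 6 pathway lists, 1 point per gene, in Ova (light) and IC (dark); filled points have an adjusted p under 0.05. The lists hold genes on both sides of 0 except the partners and turnover factors, where no filled point is below 0; the outermost point, Trim17 at 3.78 in Ova, is a fitted value of a gene with hardly any counts in DMSO and depends on the prior count.

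Ranked by Pearson correlation of log2 CPM over the 12 libraries, the genes most like Bmf among 9427 with a mean count of at least 50 were St8sia4 (r = 0.948), Sf3b3 (0.931), Itga6 (0.927), Paqr7 (0.923) and Pald1 (0.912). The libraries share 3 mice, 4 groups and 1 scaling, so these values are a description. Like Bmf, each of the 5 had its highest group mean in DMSO Ova and its lowest in iBET IC, an order that the ranking itself favours. St8sia4, for instance, was at 110 CPM in DMSO Ova, 79.3 in iBET Ova, 64.3 in DMSO IC and 56.2 in iBET IC. After group means were removed, r with Bmf was between 0.522 and 0.724 for these 5 genes, which were picked on the same libraries.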

How the data were processed

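Per the submitters' processing notes, reads were handled with CASAVA, FastQC, Trim Galore, HISAT2 (mm10) and featureCounts. The authors deposited raw counts per gene symbol, used here, and a normalized table (counts divided by 1 factor per library), not used here. Annotation, strand and multi-mapped reads in counting are not given in the sources used here.

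Counts were filtered (edgeR 4.0.16, filterByExpr, minimum count 10), scaled by TMM and fitted with 1 quasi-likelihood model (robust, 1 term per group, 12 libraries, R 4.3.3). The 5 contrasts were IC against Ova in each drug arm, iBET against DMSO in each stimulus, and the interaction. Two-sided p-values were adjusted by Benjamini-Hochberg over all 11468 genes, and called under 0.05. SE is the absolute log2 change over the square root of F, and intervals are approximate for low counts. Log2 CPM per mouse used a prior count of 2. Lengths came from GENCODE vM21 (GRCm38), promoters from RefSeq. The fit was tested on simulated data with changes set in the iBET contrasts and none in the others.

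The members and gene lists were chosen with earlier results of these data known. The named genes were all members, at most 3 tested genes per pathway list with the lowest adjusted p in either iBET contrast, and the 5 genes most like Bmf; Brd2, Hexim1, Myc, Irg1, Cxcl2 and Nfkbia were checks. Tigar, Sesn1 and Nfkb1 were named after their values were seen. A gene that the rule selects is not reported here. Mouse identity comes from the labels; deviations from group means correlated at a median r of 0.263 over 18 same-mouse pairs (lowest -0.0725) and -0.134 over 36 pairs from different mice. Alternatives were DESeq2 1.42.0, its size factors, other filters, mouse as a block, 1 surrogate variable (sva 3.50.0), the compared groups alone, removal of Rn45s, and leaving out 1 library or 1 mouse; the summed Bcl2a1 copies and the averaged IC contrast were added after the data were seen.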

Additional observations from a re-analysis of the deposited data

How the results depend on the processing

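Of 1185 member values under the alternatives, 1075 kept direction and side of the threshold, 49 lost their call, 2 gained one and 59 changed sign, 0 of them called. With the compared groups alone, 0 members were called with IC in DMSO; with 1 library or mouse left out that count was 0 to 1, and with iBET it was 3 to 7 in Ova and 3 to 7 in IC. Mouse as a replicate block gave 1, 0, 7, 7 and 0 members called in the 5 comparisons. Over all 11468 genes it gave 315, 85, 4387, 4829 and 0 calls in them. Among the members it changed no other call than that of Bcl2a1b in the averaged IC contrast. With mouse A left out of all groups the Bcl2a1b change with iBET in Ova was -3.63. The log2 difference of Bax with IC under iBET was 0.0013 with DESeq2 size factors, 0.0027 in DESeq2, 0.0066 without a filter, 0.0071 with the compared groups alone, 0.0065 without Rn45s and 0.00090 with Bcl2a1 copies summed; that of Bak1 was 0.0024, 0.0039, 0.0080, 0.0092, 0.0092 and 0.0033 under these, and 0.0020 with at least 10 counts in every library, where Bcl2a1b had no value; the interaction has none with the compared groups alone. Mcl1 with IC under iBET was -0.0027 with the replicate block. With 1 library or mouse left out, IC in DMSO gave -0.058 to 0.058 for Bcl2l1, -0.090 to 0.14 for Pmaip1 and -0.075 to 0.13 for Bak1. IC under iBET gave -0.051 to 0.048 for Mcl1, -0.35 to 0.064 for Bbc3, -0.14 to 0.12 for Bax and -0.069 to 0.055 for Bak1. For iBET in Ova the ranges were -0.011 to 0.35 for Bbc3 and -0.032 to 0.16 for Bax. The interaction ranged from -0.048 to 1.15 for Bcl2a1b, -0.057 to 0.13 for Bcl2l11, -0.072 to 0.36 for Bbc3, -0.022 to 0.17 for Pmaip1 and -0.16 to 0.090 for Bak1. Over all genes, 140 calls with IC in DMSO became 268 in DESeq2, 315 with the block, 504 with 1 surrogate variable and 5 with the compared groups alone; 40 under iBET became 113, 85, 130 and 99. Leaving out 1 library or mouse gave 0 to 159 and 0 to 305 calls with IC, and 1310 to 3899 and 1769 to 4469 with iBET in Ova and IC, lowest without mouse B in each. For the interaction it gave 0 to 1. The causes were not tested. Bmf (16 to 154 counts per library) and Bcl2a1b (0 to 141) reached the lowest counts of the members.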
